A study of Mus musculus with 48 samples.

Results

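A set of 10 genes known from the choroid plexus and the meninges was followed through 48 mouse brain libraries. They were taken by symbol, and each of Ttr, Folr1, Kl, Clic6, Aqp1, Enpp2, Dcn, Col1a2, Igf2 and Igfbp2 matched 1 of the 38293 Ensembl gene identifiers in the count table, so these are 10 genes of 38293. The libraries came from 2 brain sites, the DVC (dorsal vagal complex, in the hindbrain under the fourth ventricle) and the MBH (mediobasal hypothalamus), which borders the third ventricle and the median eminence. Each site gave 2 kinds of RNA: RNA of ribosomes captured with an antibody to phosphorylated ribosomal protein S6 (IP), a modification that rises in active neurons, and total RNA set aside from the homogenate before the capture (input). The donors were male C57/Bl6 mice aged 9 weeks on standard chow, with no engineered allele named, that were fasted for 6 h and injected intraperitoneally with 10 µL per g of body weight. The 4 treatments were AC3174, a peptide that activates the GLP-1 receptor, at a dose of 1 µg/kg, then AC170222, listed at a dose of 2.5 µg/kg, then a combination of the drugs, and saline, and the series title speaks of combining GLP-1 with CCK. The labels give no doses for the combination, no time between injection and dissection, and no statement on whether a sample was 1 mouse or a pool. The protocol text also writes AC710222, at 2.5 or 10 µg/kg, so the AC170222 dose is not certain. Site, kind of RNA and treatment made 16 groups of 3 libraries, numbered 1 to 3 in the titles, and all p-values measure the spread between these samples.

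The choroid plexus is a sheet of epithelium over fenestrated vessels that projects into the ventricles and secretes the cerebrospinal fluid. Its epithelium releases carrier proteins, moves water and ions, and takes up vitamins such as folate from the blood. The meninges wrap the brain in fibroblasts that lay down collagen and small proteoglycans and release growth factors, and meningeal fibroblasts also run along large vessels and into the stroma of the choroid plexus. Choroid plexus hangs in the fourth ventricle over the DVC and in the third ventricle above the hypothalamus, and a dissected block of either site can carry some of it.

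In DVC, total counts were 102116189 to 191252522 per IP library and 29492622 to 95079227 per input library, over 9925 to 16796 and 16569 to 18200 genes with at least 1 count. MBH libraries had 21782798 to 73940674 counts in IP, over 6285 to 15913 genes, and 36542586 to 80084056 in input, over 12853 to 18657 genes, and 1 DVC IP library and 5 MBH IP libraries had counts in fewer than 12000 genes. Levels are given in CPM, counts scaled to a common library size with trimmed means of M values (TMM). The kit amplified small amounts of RNA without molecular identifiers and without marking strand, so a 0 in 1 library can be a lost transcript, and intervals on counts would cover counting error only.

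The label was checked against marker lists. In DVC, 30 further choroid plexus genes summed to 165 to 1565 CPM in IP libraries and 234 to 753 CPM in input libraries, and all 30 had counts in at least 1 DVC input library. In MBH the same list summed to 22.4 to 359 CPM in IP and 125 to 256 CPM in input. Cab39l made a large part of these sums, with means of 127 CPM in DVC input and 109 CPM in MBH input, which weakens them as a check. Tmem72 was at 0 in all 24 MBH libraries, and Slc4a5, Abca4, Mfrp, Cdhr4, Col8a1 and Col8a2 were at 0 in all 12 MBH IP libraries. Of the members, Folr1 was at 0 in all 12 MBH input libraries and Aqp1 in all 12 MBH IP libraries, while Kl and Clic6 averaged 15.2 and 14.7 CPM in MBH input. Kl and Clic6 thus had counts in MBH input, where Folr1 and Tmem72 had none. Of the 30 list genes, Tmem72 alone was at 0 in all MBH input libraries, and Prlr averaged 12.4 CPM there. Aqp1 was near 0 in input at both sites, with means of 0.244 CPM in DVC and 0.192 CPM in MBH. A list of 30 further meningeal genes summed to 516 to 998 CPM in DVC input and 97 to 1791 CPM in MBH input, with Ptgds at means of 414 and 290 CPM. The matrix genes Col1a1, Col3a1 and Lum averaged 2.18, 2.82 and 0.524 CPM in DVC input, while Aldh1a2, Apod and Spp1 averaged 31.1, 123 and 86.7 CPM. Genes of this list thus went both ways, and they do not settle the meningeal part of the label. Neuron markers were abundant at both sites, with sums of 10827 to 13561 CPM in DVC input and 5492 to 7300 CPM in MBH input. In bulk tissue, fewer cells of a type and less RNA per cell cannot be told apart.

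Ttr encodes transthyretin, the carrier of thyroid hormone and of retinol-binding protein that choroid plexus epithelium secretes into the cerebrospinal fluid (Ensembl ENSMUSG00000061808, GRCm38 chromosome 18, 20665280 to 20674321, plus strand). In DVC IP libraries 1, 2 and 3, Ttr had 1233, 27.0 and 555 CPM after AC3174, 40.5, 17.0 and 216 CPM after AC170222, 554, 9.36 and 972 CPM after the combination, and 94.2, 39.2 and 2456 CPM after saline. In the DVC input libraries it had 1033, 36.1 and 159 CPM after AC3174, 13.5, 32.2 and 124 CPM after AC170222, 314, 15.5 and 1081 CPM after the combination, and 38.5, 37.9 and 1523 CPM after saline. Levels therefore spread widely within each treatment: all 4 held a low library, and over the 12 libraries the highest exceeded the lowest 262-fold in DVC IP and 112-fold in DVC input. Libraries numbered 2 were low in every treatment and kind, at 39.2 CPM or less, and libraries numbered 3 were all at 124 CPM or more. The titles also hold a code with a column from 1 to 6, and the 4 DVC samples in columns 1 and 2 had at most 94.2 CPM in IP and 38.5 CPM in input, against at least 216 and 124 CPM in the 4 samples of columns 3 and 4. Whether the dissection, the animals or the library set goes with these columns is not stated, and their part in the result was not tested.

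In MBH, Ttr was low or absent. The IP libraries had a lowest, median and highest level of 0, 3.36 and 45.7 CPM, with 3 of 12 at 0, and the input libraries had 0, 0.0185 and 31.8 CPM, with 6 of 12 at 0. All 4 input libraries numbered 1 had 3.76 to 31.8 CPM, while the 8 numbered 2 or 3 had 0.56 CPM or less.

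**Figure D1:**
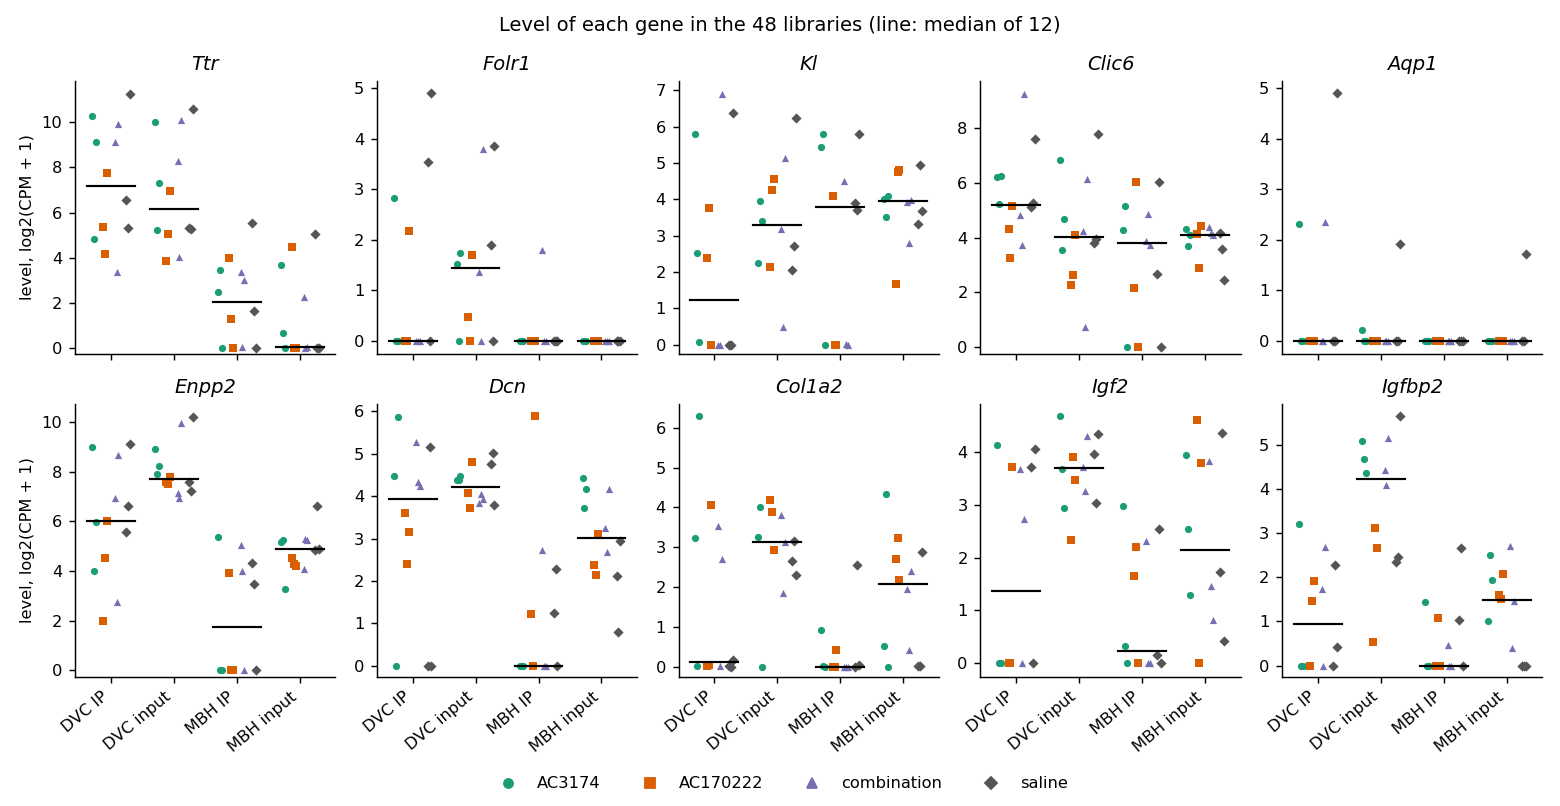
Level of the 10 genes in all 48 libraries as log2(CPM + 1) (vertical axis), by site and kind of RNA (horizontal axis, DVC IP, DVC input, MBH IP, MBH input), with colour and marker for the treatment and a line at the median of 12 libraries. Ttr, Enpp2 and Clic6 spread widely within DVC, Folr1 is at 0 throughout MBH input, and the DVC and MBH input ranges of Kl overlap (medians 8.8 and 14.6 CPM).

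The other epithelial genes differed widely in level. Folr1, the receptor that carries folate across the choroid plexus epithelium (ENSMUSG00000001827, chromosome 7, 101858331 to 101870788, minus strand), had counts in 4 of 12 DVC IP and 8 of 12 DVC input libraries. Its highest levels were 28.9 CPM in DVC IP and 13.6 CPM in DVC input, both in saline sample 3, and the second highest DVC input library was combination sample 3 with 12.9 CPM. Of the 24 MBH libraries 1 had counts, an IP library of the combination with 2.47 CPM. Clic6, a chloride intracellular channel family protein abundant in this epithelium (ENSMUSG00000022949, chromosome 16, 92485736 to 92541243, plus strand), had counts in all 24 DVC libraries, with a lowest, median and highest level of 8.48, 35.7 and 618 CPM in IP and 0.671, 15.3 and 221 CPM in input. In MBH its levels were 0, 12.9 and 65.5 CPM in IP and 4.47, 16.3 and 20.7 CPM in input. The DVC and MBH medians of Clic6 were thus close in input, while its highest DVC libraries lay above every MBH library.

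Kl encodes klotho, a membrane protein and co-receptor for FGF23 that the choroid plexus and the kidney make in quantity (ENSMUSG00000058488, chromosome 5, 150952607 to 150993817, plus strand). In DVC its lowest, median and highest levels were 0, 2.14 and 119 CPM among IP libraries and 0.403, 8.8 and 74.9 CPM among input libraries. In MBH they were 0, 12.9 and 54.5 CPM among IP libraries and 2.15, 14.6 and 29.7 CPM among input libraries. All 4 ranges overlap. Aqp1, the water channel of the apical epithelial membrane (ENSMUSG00000004655, chromosome 6, 55336432 to 55348555, plus strand), was nearly absent: 3 of 12 DVC IP libraries had 3.95, 4.13 and 28.9 CPM, 2 of 12 DVC input libraries had 0.168 and 2.76 CPM, and 1 MBH input library had 2.3 CPM. The 3 DVC IP libraries with Aqp1 were AC3174 sample 1, combination sample 3 and saline sample 3, which are also the 3 with the most Ttr.

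Enpp2 encodes autotaxin, a secreted phosphodiesterase that makes lysophosphatidic acid and is found in choroid plexus, in oligodendrocytes and in leptomeningeal cells (ENSMUSG00000022425, chromosome 15, 54838901 to 54952892, minus strand). In DVC IP libraries 1, 2 and 3 it had 510, 14.8 and 62.2 CPM after AC3174, 2.98, 21.8 and 63.2 CPM after AC170222, 122, 5.72 and 411 CPM after the combination and 46.5, 96.2 and 557 CPM after saline. In DVC input it had 479, 240 and 299 CPM after AC3174, 189, 178 and 218 CPM after AC170222, 138, 123 and 980 CPM after the combination and 193, 150 and 1187 CPM after saline. The lowest DVC input library had 123 CPM and the highest MBH input library 96.1 CPM. How many of all genes separate the sites in this way was not counted, and 21.9% of 18576 genes were called between the sites in input. In input the highest library exceeded the lowest 9.69-fold in DVC, a narrower spread than that of Ttr. The annotation places the antisense transcript Gm26684 over 5.97% of the Enpp2 exon bases, and without strand its reads cannot be told apart from those of Enpp2.

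The matrix genes followed another pattern. Dcn encodes decorin, a small leucine-rich proteoglycan that binds collagen fibrils and is a standard meningeal fibroblast marker (ENSMUSG00000019929, chromosome 10, 97479609 to 97518143, plus strand). It ran from 12.2 to 31.7 CPM in DVC input, a 2.6-fold range, and from 0.742 to 20.7 CPM in MBH input. In IP it was at 0 in 3 of 12 DVC and 7 of 12 MBH libraries, with maxima of 57.0 and 58.0 CPM. Col1a2, a chain of type I collagen (ENSMUSG00000029661, chromosome 6, 4504814 to 4541544, plus strand), had a lowest, median and highest level of 0, 0.0805 and 77.0 CPM among DVC IP libraries and 0, 7.82 and 17.1 CPM among DVC input libraries. In MBH it had 0, 0 and 4.85 CPM among IP libraries and 0, 3.19 and 19.1 CPM among input libraries. Dcn was thus steadier over DVC input libraries than Ttr or Enpp2, and both matrix genes were at or near 0 in many IP libraries.

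The growth factor pair were both detected in every DVC input library. Igf2, insulin-like growth factor 2, which leptomeninges and choroid plexus make in the adult brain (ENSMUSG00000048583, chromosome 7, 142650766 to 142666816, minus strand), had 4.05 to 24.5 CPM in DVC input and 0 to 23.3 CPM in MBH input. In IP it was at 0 in 6 of 12 DVC and 5 of 12 MBH libraries, with maxima of 16.4 and 6.83 CPM. The annotation has a second protein-coding gene, Gm49394, on the same strand over 62.8% of the Igf2 exon bases, and the antisense Igf2os over 1.71%, so the count of Igf2 is uncertain to that extent. Igfbp2, a secreted binding protein for insulin-like growth factors (ENSMUSG00000039323, chromosome 1, 72824503 to 72852474, plus strand), had 33.4, 24.7 and 19.7 CPM in the DVC input libraries 1, 2 and 3 of AC3174, 0.447, 7.71 and 5.4 CPM in those of AC170222, 20.8, 16 and 34.6 CPM in those of the combination, and 4.06, 4.48 and 49.4 CPM in those of saline. The 3 AC170222 libraries lay below those of the other 2 drug groups, while the saline libraries overlapped all of them. In DVC input Igfbp2 ran from 0.447 to 7.71 CPM in title columns 1 and 2, from 5.4 to 49.4 CPM in columns 3 and 4 and from 16 to 34.6 CPM in columns 5 and 6. AC170222 and saline samples 1 to 3 sit in columns 1 to 3, and AC3174 and combination samples 1 to 3 in columns 4 to 6, so these pairs of treatments and the columns cannot be told apart. In MBH input it had 1.03, 4.71 and 2.87 CPM after AC3174, 2.03, 1.87 and 3.19 CPM after AC170222, 5.51, 0.315 and 1.74 CPM after the combination, and 0 in all 3 libraries after saline. All 9 drug libraries of MBH input thus had counts. In IP Igfbp2 reached at most 8.3 CPM in DVC and 5.38 CPM in MBH.

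RefSeq promoter sequences on GRCm38.p6 were matched for 5 of the 10 genes, Kl, Aqp1, Col1a2, Igf2 and Igfbp2, and not for Ttr, Folr1, Clic6, Enpp2 and Dcn. The 250 bases before the start are shown for Igfbp2, one of the genes higher in DVC input than in MBH input, and for Kl, which had like means at both sites. They lie at chr1:72824230-72824479 (plus strand, 67.2% G and C) and chr5:150952357-150952606 (plus strand, 66.8% G and C).
Igfbp2: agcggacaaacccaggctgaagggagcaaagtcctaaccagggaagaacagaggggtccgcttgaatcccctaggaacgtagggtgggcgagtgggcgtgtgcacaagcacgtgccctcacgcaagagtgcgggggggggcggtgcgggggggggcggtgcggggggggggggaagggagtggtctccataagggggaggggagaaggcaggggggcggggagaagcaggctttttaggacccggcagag
Kl: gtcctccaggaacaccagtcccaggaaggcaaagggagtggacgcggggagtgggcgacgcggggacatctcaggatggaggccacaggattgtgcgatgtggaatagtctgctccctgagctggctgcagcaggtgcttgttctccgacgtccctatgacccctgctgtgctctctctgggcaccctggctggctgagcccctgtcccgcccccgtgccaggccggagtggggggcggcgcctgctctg
Neither of these, nor any other start of the 5 genes, holds TAATCC or its reverse complement GGATTA, the core bound by homeodomain factors of the Otx type, or TATAAA or its reverse complement TTTATA, the TATA box. Among 32851 RefSeq promoters of the same length, 6.25% hold the first motif and 12.4% the second, on either strand, a promoter with both counting under each. These letters are not in these windows, so no capitals mark a motif, and nothing follows from that about any factor.

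Per kilobase of exon, which allows genes to be compared, Ttr led in DVC with a mean of 437 ± 620 CPM per kb in IP and 310 ± 446 CPM per kb in input (SD, n = 12). Enpp2 was next with 27.6 ± 35.7 in IP and 63.1 ± 60.9 CPM per kb in input, and Ttr stood above it in 12 of 12 IP libraries but in 7 of 12 input libraries, so in DVC input these neighbours did not differ beyond their spread. Clic6 was the third with 25.0 ± 43.8 in IP, above Enpp2 in the other 6 of 12 libraries, and 10.9 ± 16.6 CPM per kb in input, below Enpp2 in all 12. The DVC input order then ran through Igfbp2 at 9.96, Dcn at 3.28, Igf2 at 2.21, Kl at 1.77, Folr1 at 1.37, Col1a2 at 0.683 and Aqp1 at 0.0929 CPM per kb. Each of Clic6, Igfbp2, Dcn, Igf2, Kl and Folr1 exceeded its next neighbour in 6 to 9 of 12 libraries, and these neighbours did not differ beyond their spread. In MBH input Enpp2 led with 5.51 ± 3.88 CPM per kb, followed by Ttr with 4.88 ± 8.89 and Clic6 with 3.75 ± 1.32 CPM per kb. Enpp2 exceeded Ttr in 8 of 12 and Ttr exceeded Clic6 in 3 of 12 of these libraries, so the order of the means did not hold from library to library. The medians of Enpp2, Ttr and Clic6 were 4.87, 0.0156 and 4.15 CPM per kb. Ttr was at 0 in 6 of 12 of these libraries, and its mean rests on the others. In MBH IP the highest mean was that of Ttr, at 6.69 ± 10.9 CPM per kb, but its median of 2.83 lay below the 3.3 CPM per kb of Clic6.

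The comparison of sites asked whether these genes marked DVC tissue against MBH tissue, with the 4 treatments given equal weight and 12 libraries a site. Among input libraries, 5 of the 10 genes were higher in DVC by edgeR's quasi-likelihood test at a Benjamini-Hochberg adjusted p under 0.05, and none was lower. The background was 21.9% of 18576 genes called, 11.7% higher and 10.2% lower, and the median difference of the 10 genes was 1.29 on the log2 scale against 0.105 for all genes tested. Ttr averaged 367 ± 529 CPM in DVC and 5.78 ± 10.5 CPM in MBH, a fitted log2 difference of 5.92 ± 1.48 (SE, adjusted p = 0.00674, edgeR). Enpp2 averaged 364 ± 352 CPM in DVC and 31.8 ± 22.4 CPM in MBH, 11.4-fold in the means and 3.49 ± 0.44 on the fitted log2 scale (adjusted p = 9.77e-06, edgeR). Dcn averaged 19.2 ± 6.27 CPM in DVC and 8.93 ± 6.43 CPM in MBH, with a log2 difference of 1.29 ± 0.316 (adjusted p = 0.00593, edgeR). A secreted carrier, a secreted enzyme and a matrix proteoglycan were thus all higher in DVC input, though by very different amounts.

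Folr1 averaged 3.14 ± 4.83 CPM in DVC input (2302 counts in all) and was at 0 in MBH input, at least 803-fold higher in DVC against a floor of 3 counts over the 12 MBH libraries (adjusted p = 0.00428, edgeR). The bound covers counting error only and ran from 560-fold to 876-fold when 1 DVC library was left out. In DVC input the median of Folr1 was 1.73 CPM, and 4 of 12 libraries were also at 0. With the sample number as a block the call of Folr1 was lost (adjusted p = 0.0794, edgeR, within 2.35e-05 to 0.0794 over its alternatives). Igfbp2 averaged 18.4 ± 15.1 CPM in DVC and 1.94 ± 1.85 CPM in MBH, 9.49-fold in the means. Its fitted log2 difference of 5.12 ± 0.676 (adjusted p = 2.86e-05, edgeR) gives equal weight to the saline libraries, all at 0 in MBH. Without the saline libraries of both sites it was 2.40 (adjusted p = 0.00702, edgeR), and over the other alternatives the adjusted p ran from 1.19e-15 to 0.00129. The other 5 genes did not pass the test. For Clic6 and Kl the ranges of the sites overlapped widely. Clic6 averaged 42.6 ± 65.1 CPM in DVC and 14.7 ± 5.18 CPM in MBH (log2 difference 1.10 ± 0.586, adjusted p = 0.201, edgeR), and Kl 16.5 ± 20.8 CPM in DVC and 15.2 ± 8.54 CPM in MBH (log2 difference -0.014 ± 0.603). The log2 differences of Col1a2 and Igf2 were 1.07 ± 1.01 and 0.69 ± 0.759, and Aqp1 had too few counts for a usable error. Without saline sample 3 of MBH input, Col1a2 passed (log2 difference 2.81, adjusted p = 0.0481, edgeR).

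Leaving out the 3 DVC samples with the most Ttr (AC3174 1, combination 3 and saline 3) kept 4 of these calls and ended that of Ttr, whose log2 difference was then 4.06 (adjusted p = 0.0842, edgeR, with 0.000279 to 0.0842 over its alternatives). The title codes of the sites differ, so site and library set cannot be told apart. Oligodendrocyte markers, which accompany Enpp2 in brain, summed to 6377 to 9483 CPM in DVC input and 1457 to 3313 CPM in MBH input, with 10 of 10 markers higher in DVC. Astrocyte markers summed to 746 to 1434 CPM in DVC input and 329 to 508 CPM in MBH input, with 9 of 10 higher in DVC. Macrophage markers summed to 33.1 to 63.5 CPM in DVC input and 6.91 to 52.0 CPM in MBH input, and endothelial markers to 16 to 65.7 CPM in DVC input and 0 to 53.1 CPM in MBH input. Ependymal markers went the other way, with 74.8 to 206 CPM in DVC input and 261 to 372 CPM in MBH input. So did pituitary markers, with 9.37 to 42.2 CPM in DVC input and 93.2 to 206 CPM in MBH input. Over all genes tested, 11.7% were called higher in DVC input and 10.2% lower. The part of these cells in the differences of the members was not tested.

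Among IP libraries, 1 of the 10 genes was higher in DVC and none was lower, beside a background of 5.89% of 17230 genes called, 3.11% higher and 2.79% lower. The gene was Ttr, with 518 ± 736 CPM in DVC and 7.94 ± 12.9 CPM in MBH, a fitted log2 difference of 5.84 ± 1.4 (adjusted p = 0.0173, edgeR). The call was lost without combination sample 3 of MBH IP (adjusted p = 0.0512, edgeR, within 0.0211 to 0.0512 when each library was left out) and without the 3 DVC samples with the most Ttr (log2 difference 4.43, adjusted p = 0.0961), and the adjusted p ran from 2.92e-06 to 0.266 over the other alternatives. Enpp2, with 159 ± 207 CPM in DVC and 10.9 ± 13.9 CPM in MBH, had a log2 difference of 3.67 ± 1.48. Dcn, with 17.6 ± 17.9 CPM in DVC and 5.85 ± 16.5 CPM in MBH, had 4.82 ± 1.91. Its ratio of means was 1.59 on the log2 scale, and all 3 AC3174 libraries of MBH IP were at 0 for it. Col1a2, with 9.77 ± 21.8 CPM in DVC and 0.508 ± 1.39 CPM in MBH, had 4.71 ± 1.84. Enpp2, Dcn and Col1a2 had unadjusted p-values under 0.05 and adjusted p-values of 0.159 to 0.169 by edgeR's quasi-likelihood test. Enpp2 passed without AC3174 sample 1 of MBH IP (log2 difference 6.93, adjusted p = 0.0356, edgeR). The median difference of the 10 genes was 4.19 on the log2 scale against 0.112 for all genes tested. That median takes in Folr1 at 6.04 and Aqp1 at 8.11, which had no usable error, and fits over treatments at 0 in MBH. It is therefore no measure of a common shift between the sites. The spread between IP libraries was larger than that between input libraries, with a common biological coefficient of variation of 1.75 against 1.07 in the fits of the sites.

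**Figure D2:**
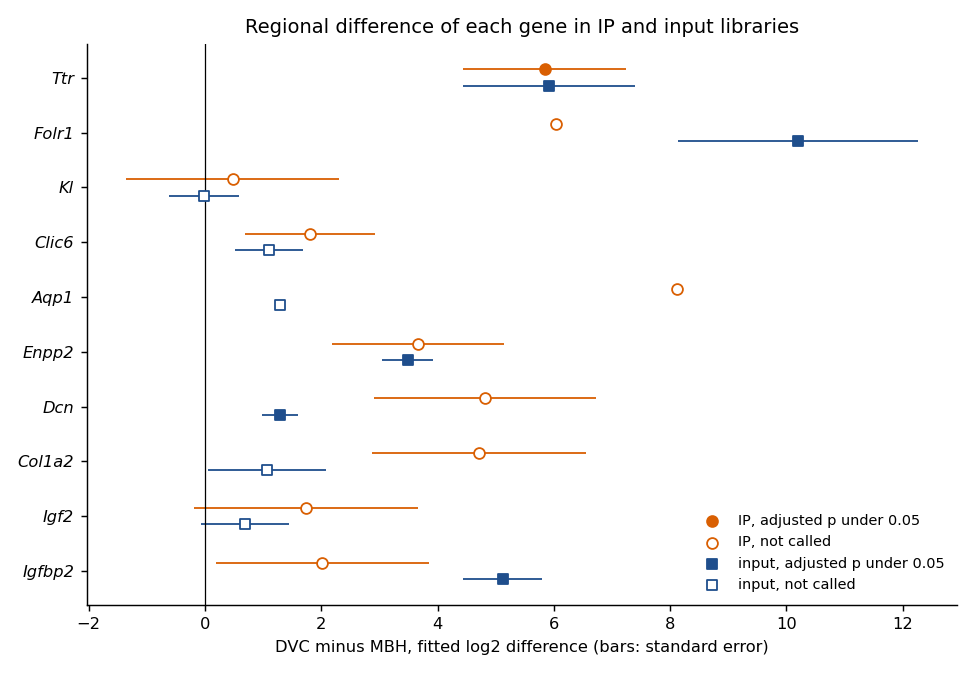
Fitted difference DVC minus MBH on the log2 scale (horizontal axis) for each gene (vertical axis), in IP (orange circles, above) and input (blue squares), with bars of 1 SE and filled symbols for adjusted p under 0.05. Input symbols are filled for Ttr, Folr1, Enpp2, Dcn and Igfbp2, the IP symbol for Ttr alone, and Kl in input lies at -0.014; no bar is drawn for Folr1 in IP and Aqp1, whose error could not be estimated.

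Further lists were counted in the comparison of sites in input, where 11.7% of all genes were higher in DVC and 10.2% lower, and no list was tested as a set. Of 30 further choroid plexus genes, 10 were higher in DVC input and none lower (median log2 difference 2.71). Slc29a4, a monoamine transporter, had 48.7 ± 14.7 CPM in DVC and 16.3 ± 8.11 CPM in MBH, and Msx1, a homeobox factor, had 32.2 ± 15.6 CPM in DVC and 9.26 ± 5.13 CPM in MBH. The secreted augurin gene 1500015O10Rik had 9.43 ± 10.6 CPM in DVC and 0.283 ± 0.421 CPM in MBH, and Tmem72 had 3.06 ± 4.43 CPM in DVC and 0 in MBH. Of 28 further meningeal genes tested, 4 were higher, a share near that over all genes, and 1 was lower in DVC (median 0.66). Apod, a lipocalin that oligodendrocytes also make, had 123 ± 32.4 CPM in DVC and 23.0 ± 13.3 CPM in MBH, Spp1 (osteopontin) had 86.7 ± 29.2 CPM in DVC and 5.79 ± 8.16 CPM in MBH, and the collagen-binding Fmod had 4.58 ± 3.17 CPM in DVC and 0.581 ± 1.77 CPM in MBH. The organic anion transporter Slc22a6 was the lower one, with 0.0833 ± 0.217 CPM in DVC and 0.707 ± 1.54 CPM in MBH.

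Lists around single members were counted in the same way. Of 17 genes of water, chloride and bicarbonate transport tested, 10 were higher in DVC input and none lower, led by carbonic anhydrase Car2 with 712 ± 89.1 CPM in DVC and 214 ± 53.9 CPM in MBH. Of 11 genes of lysophosphatidic acid signalling, to which autotaxin belongs, 3 were higher, among them the lipid phosphatase Plpp1 with 42.4 ± 4.87 CPM in DVC and 25.9 ± 8.66 CPM in MBH. Of 16 genes of the insulin-like growth factor axis, 3 were higher and 1 was lower. The receptor Igf1r had 5.17 ± 2.86 CPM in DVC and 0.98 ± 0.967 CPM in MBH, and the binding protein Igfbp3 was the lower one, with 10.1 ± 7.89 CPM in DVC and 16.7 ± 6.88 CPM in MBH. Of 8 klotho and FGF receptor genes 4 were higher, Fgfr3 with 72.7 ± 21 CPM in DVC and 19.1 ± 9.95 CPM in MBH. Of 12 genes of thyroid hormone and retinol handling none was higher and 3 were lower, among them the receptor Thrb with 15 ± 6.91 CPM in DVC and 56.8 ± 27.2 CPM in MBH. Of 14 folate genes 2 were higher, and of 17 collagen and proteoglycan genes 3 were higher and 1 was lower. None of these counts was tested against the 11.7% over all genes, and those of the folate, insulin-like growth factor and collagen lists lie close to it.

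IP was then set against input within each site, which asks whether a transcript was over- or under-represented on the captured ribosomes. In DVC, 0 of the 10 genes passed edgeR's quasi-likelihood test, beside a background of 20.4% of 18465 genes called, 6.8% higher and 13.6% lower. At an unadjusted p under 0.05 there were 2, DESeq2 called 3 and limma-voom 3. Enpp2 averaged 159 ± 207 CPM in IP and 364 ± 352 CPM in input, a fitted log2 difference of -1.44 ± 0.684 (adjusted p = 0.154, edgeR), and IP lay above input of the same number in 1 of 12 samples. Igfbp2 averaged 2.07 ± 2.68 CPM in IP and 18.4 ± 15.1 CPM in input (log2 difference -2.93 ± 1.31, adjusted p = 0.129, edgeR), with IP above input in 0 of 12 samples. Clic6 averaged 97.9 ± 171 CPM in IP and 42.6 ± 65.1 CPM in input (log2 difference 1.18 ± 0.728), with IP above input in 10 of 12 samples, and Ttr had a log2 difference of 0.54 ± 0.914 with IP above input in 8 of 12. Kl had a log2 difference of 0.31 ± 1.47. Without the 3 samples with the most Ttr it turned to -6.74 with an adjusted p of 0.0161 by edgeR (0.0161 to 1 over its alternatives), and Enpp2 then also passed (log2 difference -1.93, adjusted p = 0.0426, over alternatives 0.0349 to 0.231). The samples left out held all Kl counts of saline and of the combination in DVC IP, where 2 of 3 libraries each were at 0. Both treatments then stood at 0 in IP, and the size of -6.74 depends on them.

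Single libraries decided some calls here: Dcn passed without saline sample 2 (log2 difference -3.37, adjusted p = 0.0135, edgeR) and Igfbp2 without AC3174 sample 1 (log2 difference -5.54, adjusted p = 0.0157, edgeR). In both cases the sample left out held the only IP library of its treatment with counts of that gene, 2 of 3 being at 0. The log2 difference then averages over a treatment at 0 in IP, and its size depends on that group. The median difference of the 10 genes was -0.66 on the log2 scale, against -0.37 for all genes tested.

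Further lists were set beside the members, to be read against 6.8% of all genes higher and 13.6% lower in IP. In DVC, 11 of 27 further meningeal genes were lower in IP and none was higher (median log2 difference -3.15), and 7 of 15 collagen and proteoglycan genes were lower. Ptgds, the prostaglandin D synthase of meninges and choroid plexus, had 94.1 ± 83.5 CPM in IP and 414 ± 87.0 CPM in input, and Mgp, a matrix calcification inhibitor, had 0.646 ± 1.79 CPM in IP and 4.19 ± 2.94 CPM in input. Of 29 further choroid plexus genes 5 were lower, a share near that over all genes, and none higher (median -1.15). Among the lower ones was the transporter Abca4, with 0.187 ± 0.646 CPM in IP and 5.18 ± 4.76 CPM in input. Mgp was at 0 in 9 DVC IP libraries and Abca4 in 10, and Col1a1, Bgn and Fmod of the meningeal list in 11 each. The fitted differences of Mgp and Abca4 average over treatments at 0 in IP, and their size depends on those groups. Ptgds, in contrast, had at least 13.3 CPM in every DVC IP library. The medians of -3.15 and -1.15 take in genes such as Mgp and Abca4 and are no measure of a common shift. Endothelial, macrophage and oligodendrocyte markers had 4 of 10, 5 of 9 and 4 of 10 lower in IP and none higher, and neuron markers had 4 of 10 higher and none lower.

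In MBH, 8 of the 10 genes could be tested, 0 passed edgeR's quasi-likelihood test, and the background was 0.452% of 17461 genes called, 0.16% higher and 0.292% lower. At an unadjusted p under 0.05 there were 2, and DESeq2 and limma-voom called 2 each. Col1a2 averaged 0.508 ± 1.39 CPM in IP and 4.24 ± 5.48 CPM in input (log2 difference -5.14 ± 1.67, adjusted p = 0.177, edgeR), and Dcn 5.85 ± 16.5 CPM in IP and 8.93 ± 6.43 CPM in input (log2 difference -3.59 ± 1.31, adjusted p = 0.23, edgeR). Whether IP against input differed between the sites was tested directly in all 48 libraries. None of the 10 genes passed (background 4.39% of 19416 genes by edgeR, 2.33% higher and 2.06% lower), 1 had an unadjusted p under 0.05, DESeq2 called 4 and limma-voom 0. Dcn came nearest, with a difference of 3.57 ± 1.65 on the log2 scale (adjusted p = 0.313, edgeR). Both this value and the -3.59 of Dcn in MBH average over the AC3174 libraries of MBH IP, all 3 at 0.

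Each drug was set against the shared saline libraries, 3 against 3, within each site and kind of RNA, 12 comparisons in all with 8 to 10 of the 10 genes tested. AC170222 shares its title columns with saline, while AC3174 and the combination do not, so a difference of those from saline cannot be told apart from one between columns. None of the genes passed edgeR's quasi-likelihood test in any of them, and the background was 0% of the 14766 to 17477 genes tested. Over the 12 comparisons, 6 tests of members had an unadjusted p under 0.05, DESeq2 called 5 and limma-voom 0, while over all genes 127 to 1427 had such a p per comparison, DESeq2 called 158 to 1144 and limma-voom 0 to 20. In DVC input Ttr averaged 410 ± 544 CPM after AC3174, 56.6 ± 59.1 CPM after AC170222 and 470 ± 550 CPM after the combination, against 533 ± 857 CPM after saline (n = 3 each). In DVC IP it averaged 605 ± 605, 91.1 ± 109 and 512 ± 483 CPM in the same order, against 863 ± 1380 CPM after saline. The SD equalled or exceeded the mean in all of these groups but the combination in IP. The difference from saline after AC170222 in input was -3.25 ± 1.79 on the log2 scale (unadjusted p = 0.0963, adjusted p = 1, edgeR), and the saline group holds the library with 1523 CPM beside libraries of 38.5 and 37.9 CPM.

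**Figure D3:**
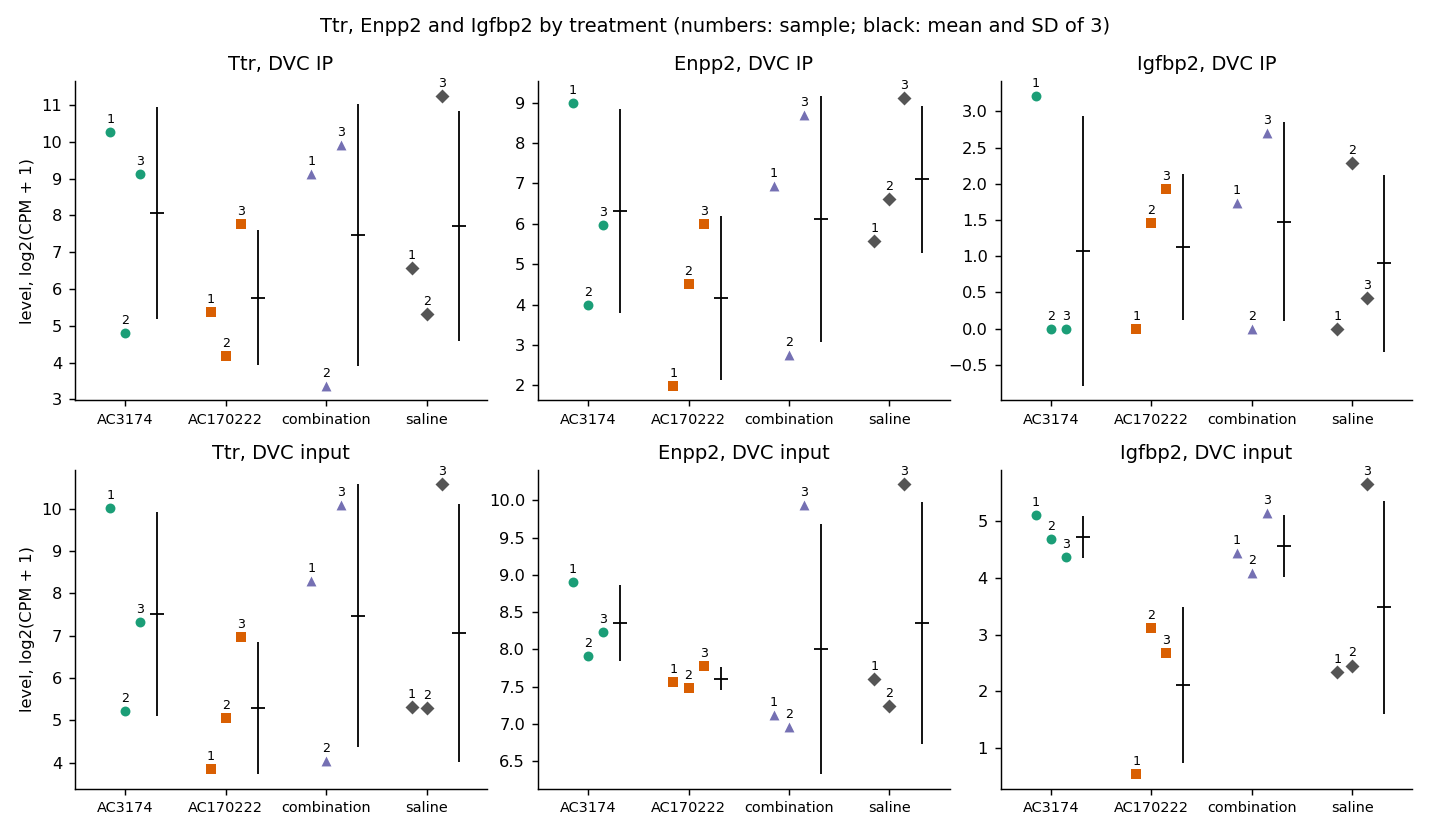
Ttr, Enpp2 and Igfbp2 in DVC IP (top) and DVC input (bottom) as log2(CPM + 1) (vertical axis) by treatment (horizontal axis, AC3174, AC170222, combination, saline), with sample numbers at the points and mean ± SD of 3 in black. Sample 2 is low for Ttr in all 4 treatments and sample 3 of saline and of the combination is high for Ttr and Enpp2.

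Igfbp2 in MBH input was the only member at 0 in every saline library and with counts in all 9 drug libraries. Its means were 2.87 ± 1.84 CPM after AC3174, 2.36 ± 0.72 CPM after AC170222 and 2.52 ± 2.69 CPM after the combination, against 0 after saline. Against a floor of 3 counts over the 3 saline libraries these are at least 201-fold, 166-fold and 177-fold higher. That floor covers counting error only. Saline sample 2 had counts in 12853 genes, the fewest of the MBH input libraries. How many of all genes share this pattern of saline and drug libraries was not counted. Without combination sample 1, which had 5.51 CPM, the combination was at least 71.9-fold higher, at a mean of 1.03 CPM, while the bound ran from 137-fold to 266-fold for AC3174 and from 137-fold to 183-fold for AC170222 when 1 of their libraries was left out. The unadjusted p-values were 0.000506, 0.000567 and 0.000545 and the adjusted ones 0.449, 0.709 and 0.388 by edgeR's quasi-likelihood test, so none passed. DESeq2 called all 3 (adjusted p = 6.66e-07, 1.47e-06 and 1.87e-06), and the alternatives of the 3 comparisons ran up to 0.908 or 1. The 3 comparisons share the same saline libraries and are not independent. In DVC input the 3 drug means of Igfbp2 were 25.9 ± 6.91, 4.52 ± 3.71 and 23.8 ± 9.61 CPM, against 19.3 ± 26.1 CPM after saline, and in MBH IP 2 of 3 saline libraries had counts. Col1a2 in DVC IP had 8.31, 0.00713 and 77.0 CPM after AC3174 and at most 0.129 CPM after saline (unadjusted p = 0.0482, adjusted p = 0.677, edgeR).

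Since Ttr varied widely between samples of 1 treatment, the other 9 genes were set against it over the 12 libraries of each site and kind. Of 36 relations of log2(CPM + 1), 34 had a value, and 9 passed a permutation test of Pearson's r with 100000 resamples adjusted over them, 4 in DVC IP, 5 in DVC input and none in MBH. In DVC input Clic6 followed Ttr most closely (r = 0.93, rho = 0.972, permutation p = 1e-05, the smallest these resamples can give, adjusted p = 0.00034), with r = 0.889 after the 2 libraries farthest from the median of Ttr were left out. Folr1 had r = 0.828 and rho = 0.783 (permutation p = 0.00104, adjusted 0.00867), Enpp2 r = 0.82 and rho = 0.692 (permutation p = 0.00153, adjusted 0.00867), Igfbp2 r = 0.74 and rho = 0.734 (permutation p = 0.00629, adjusted 0.0306) and Igf2 r = 0.712 and rho = 0.664 (permutation p = 0.00936, adjusted 0.0354). Without the 2 farthest libraries their r was 0.65, 0.638, 0.613 and 0.599 in that order. The relations of Dcn and Col1a2 with Ttr in DVC input did not pass (r = -0.254 and -0.158, permutation p = 0.419 and 0.651, adjusted 0.647 and 0.837), nor did that of Kl, with r = 0.599 (rho = 0.552, permutation p = 0.0389, adjusted 0.12). In DVC IP the relations that passed were those of Enpp2 (r = 0.866), Clic6 (r = 0.787), Igf2 (r = 0.741) and Aqp1 (r = 0.714).

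The calls of Clic6 and Enpp2 in both kinds of DVC RNA, and of Folr1 in DVC input, held in all 12 runs that left out 1 sample. That of Igf2 lost its call in 8 of 12 runs that left out 1 sample in DVC input and in 9 of 12 in DVC IP, and that of Igfbp2 in DVC input in 4 of 12. Aqp1 in DVC IP lost its call without saline sample 3 (r = 0.645, permutation test, adjusted p = 0.0744). The 3 DVC samples with the most Ttr also held the 3 highest DVC input libraries of Clic6, Enpp2, Igf2 and Igfbp2. Saline sample 3, combination sample 3 and AC3174 sample 1 had 221, 69.4 and 113 CPM of Clic6, and 19.3, 18.7 and 24.5 CPM of Igf2. Without these 3 samples, which narrows the range of Ttr, 0 of the 32 relations with a value passed, with r = 0.788 for Clic6, 0.664 for Folr1, 0.485 for Igfbp2, 0.282 for Igf2 and 0.247 for Enpp2 in DVC input over the 9 libraries left. Clic6 thus also lost its call by Pearson's r there (adjusted p = 0.141, permutation test), as it did in DVC IP (r = 0.698, permutation test, adjusted p = 0.336). By rank, Clic6 still followed Ttr in DVC input over the 9 libraries (rho = 0.95, permutation p = 0.00035, adjusted 0.0112). In DVC IP its rank relation did not pass (rho = 0.533, permutation test, adjusted p = 0.507). Within the sets of title columns, as departures from the mean of each set of 4 libraries, 3 relations passed a permutation test that exchanged libraries inside a set, those of Clic6 in DVC IP (r = 0.88) and DVC input (r = 0.922) and that of Igfbp2 in DVC input (r = 0.659), each with an adjusted p of 0.0261. Enpp2 had r = 0.79 in DVC IP and 0.85 in DVC input (permutation test, adjusted p = 0.0843 each), Folr1 had r = 0.803 in DVC input (permutation test, adjusted p = 0.107), and Igf2 had 0.543 and 0.606 and Aqp1 in DVC IP 0.59 (permutation test, adjusted p = 0.146 each). The samples with the most Ttr were in columns 3 to 6, and depth and library set were shared by all genes of a library.

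**Figure D4:**
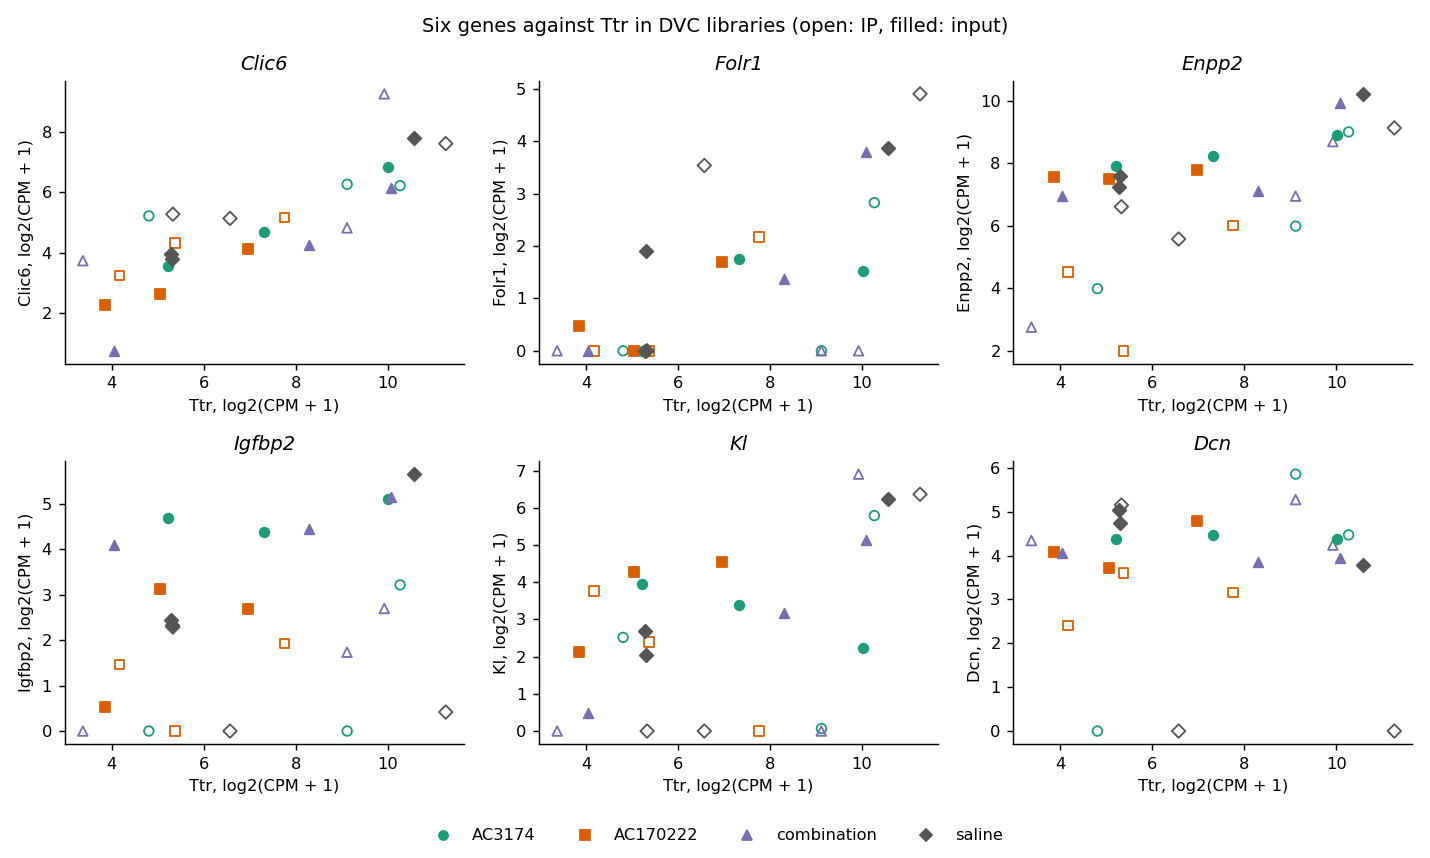
Clic6, Folr1, Enpp2, Igfbp2, Kl and Dcn (vertical axes) against Ttr (horizontal axis) in the 24 DVC libraries, all as log2(CPM + 1), open symbols for IP and filled for input, coloured by treatment. Clic6 rises with Ttr in input (r = 0.93) while Dcn stays between 12.2 and 31.7 CPM in input over the whole range of Ttr (r = -0.254).

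The same sample numbers were compared between the kinds of RNA. Ttr in DVC IP followed Ttr in the input library of the same treatment and number (r = 0.946, rho = 0.916, permutation p = 1e-05, adjusted p = 0.00018 over the 18 relations with a value), with r = 0.923 without the 2 farthest samples. Clic6 (r = 0.822), Aqp1 (r = 0.859), Enpp2 (r = 0.722) and Igf2 (r = 0.689) also passed in DVC, and Ttr passed in MBH (r = 0.781, rho = 0.891, permutation p = 0.00215, adjusted 0.0129), where r was 0.533 without the 2 farthest samples. Dcn and Col1a2 did not (r = 0.0666 and -0.494 in DVC). Over the 9 DVC samples other than the 3 with the most Ttr, r was 0.901 for Ttr and 0.803 for Clic6, but 0.0965 for Enpp2. Leaving out 1 sample at a time ended the call of Aqp1 and of Igf2 in 10 of 12 runs each and of Enpp2 in 7 of 12, and that of Ttr in MBH without saline sample 1 (r = 0.665, permutation test, adjusted p = 0.0713). Within the sets of title columns Ttr (r = 0.9) and Clic6 (r = 0.91) passed in DVC (permutation test, adjusted p = 0.0335 each), Enpp2 had r = 0.705, Igf2 0.624 and Aqp1 0.832 in DVC and Ttr r = 0.791 in MBH (permutation test, adjusted p = 0.0773, 0.206, 0.217 and 0.0604).

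**Figure D5:**
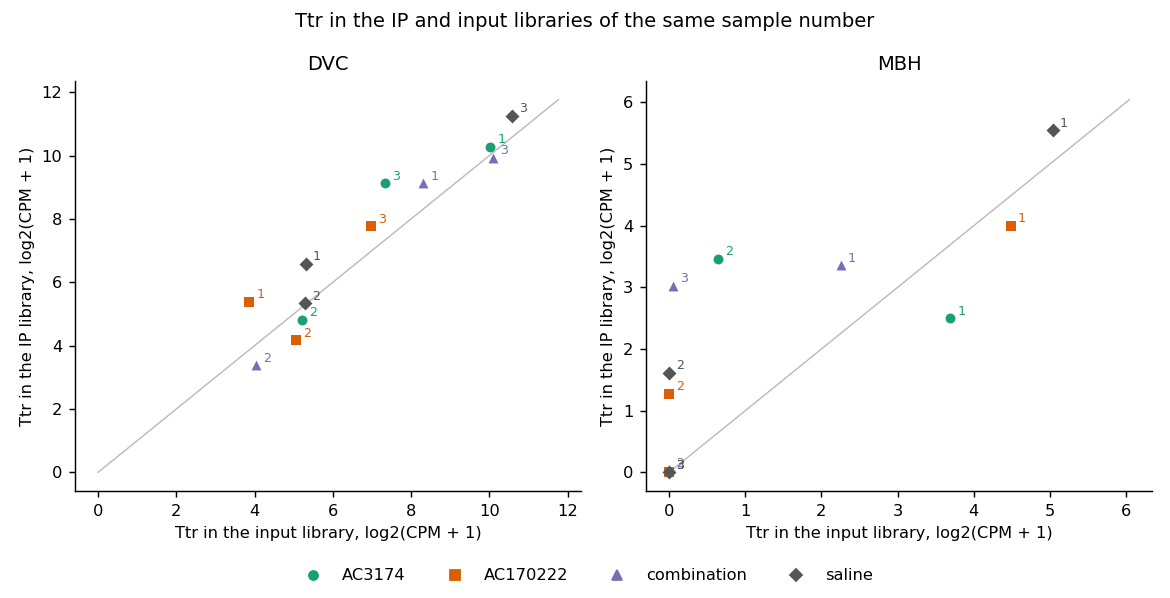
Ttr in IP (vertical axis) against Ttr in the input library of the same treatment and sample number (horizontal axis), as log2(CPM + 1), for DVC and MBH, coloured by treatment, with a grey line of equality. The 12 DVC samples lie along the line from 9.36 to 2456 CPM in IP (r = 0.946). In MBH the IP levels run from 0 to 45.7 CPM with a median of 3.36 CPM, and 6 of 12 input libraries are at 0.

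Genes outside the 10 with levels most like Ttr over the 12 DVC input libraries included Calml4 (r = 0.931), Ankrd54 (0.911), Otx2 (0.903), Prr32 (0.887) and 1500015O10Rik (0.882), among the 11471 genes whose mean reached 5 CPM. These r values were the highest of many and are given without a p. Otx2 is a homeodomain factor of choroid plexus epithelium. Otx2 ran from 0 to 25.2 CPM and 1500015O10Rik from 1.3 to 32.6 CPM in DVC input. The 14 choroid plexus list genes at that level had a median r of 0.775 with Ttr, the 8 ependymal genes 0.503, the 6 meningeal genes -0.155, the 10 oligodendrocyte genes -0.332 and all 11471 genes -0.0423. The choroid plexus list and Ttr share depth and library, and part of the list marks the same epithelium by definition. In MBH input the 8 choroid plexus list genes had a median r of 0.184 with Ttr, and the most alike genes were others, led by Stmn1 (0.917), Gm6483 (0.889) and H2-T23 (0.875).

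Over the DVC input libraries the genes most like Dcn were Ccdc134 (r = 0.919), Tgfb1i1 (0.864), Tmem50b (0.851), Wdr45 (0.851), Slc2a1 (0.845) and Gm1821 (0.819), and in MBH input Tgfa (0.931), Sac3d1 (0.902), Csnk1e (0.901), Stk11 (0.894), Gpr180 (0.885) and Ncor1 (0.884). None of them is in the meningeal list, whose 6 genes at that level had a median r of 0.177 with Dcn in DVC input, against 0.0176 for all 11471 genes. Of the 14 choroid plexus list genes 6 had an r over 0.8 with Ttr, as did 23 of all 11471 genes, and 0 of the 6 meningeal list genes had such an r with Dcn, as did 10 of all 11471.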

How the data were processed

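The series gave 1 table of read counts per gene for all 48 libraries, whole numbers as deposited by the authors. Per the submitters' processing notes, TopHat2 2.0.11 and HTSeq 0.6.1p1 were used with GRCm38; the sources used here do not give strand settings, filters or the annotation release. Identifiers were named from GENCODE M21 (36429 of 38293 matched), which also gave exon lengths and coordinates.

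The 10 genes and all lists were chosen with earlier results of these data known, as were the tests. Counts were fitted with edgeR 4.0.16 in R 4.3.3 (filterByExpr by group, TMM, quasi-likelihood F test, 2-sided), with Benjamini-Hochberg adjustment over all genes tested and calls at an adjusted p under 0.05. The fits were tested on simulated data with a smaller spread between libraries than here, where the common biological coefficient of variation was 0.918 to 1.81. That test therefore does not show how the fits behave at the spread of these data. Differences between sites and between kinds of RNA average the 4 treatments on the log2 scale. CPM use TMM-scaled totals over all 48 libraries, and plots and relations use log2(CPM + 1), a pseudocount of 1 CPM. From each list at most 4 genes with the smallest adjusted p were named, and for likeness to Ttr and Dcn the 6 genes with the highest r among those averaging 5 CPM or more, of which 1 is not reported here. In 48 within-group pairs no 2 libraries agreed within sampling noise (lowest chi-square per degree of freedom 130.1).

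Alternatives were DESeq2 1.42.0, limma-voom 3.58.1, other size factors (RLE), no filter on low counts, leaving out libraries with counts in fewer than 12000 genes, the title column pair as a covariate, the sample number as a block, and leaving out each library or sample. Added after the data had been seen were fits without the 3 DVC samples with the most Ttr, fits without the saline libraries, and relations within the sets of title columns. Labels do not say that a number pairs libraries.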

Additional observations from a re-analysis of the deposited data

How the results depend on the processing

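The 5 calls of DVC against MBH in input were 4 to 5 under the 8 other alternatives and 5 to 6 when each library was left out. Enpp2, Dcn and Igfbp2 passed in all of these; Folr1 failed with the replicate block (adjusted p = 0.0794, edgeR) and Ttr failed with limma-voom (adjusted p = 0.0712) and without the 3 DVC samples with the most Ttr (adjusted p = 0.0842). In IP the single call, Ttr, became 5 with DESeq2 and 0 with limma-voom, without the libraries under 12000 genes, with the title columns as a covariate, with the replicate block, without the 3 DVC samples with the most Ttr and without saline, and 0 to 2 when each library was left out; its log2 difference stayed between 4.43 and 7.57. For IP against input, the count of 0 in DVC became 3 with DESeq2, 3 with limma-voom, 2 with the replicate block and 2 without the 3 samples (0 to 1 leaving out each sample), and in MBH 2 with DESeq2 and 2 with limma-voom. Kl in DVC reversed to -6.74 without the 3 samples, which left saline and the combination at 0 in IP. The difference between the sites went to 4 with DESeq2. Against saline, DESeq2 called 1 member each for AC3174 (Col1a2) and the combination (Folr1) in DVC IP and 1, Igfbp2, for each drug in MBH input. Counted by Pearson's r, the 9 relations with Ttr became 0 without the 3 samples, 3 within column sets and 6 to 9 leaving out each sample. The 6 same-numbered relations became 3, 2 and 2 to 7 in the same order. The cause of these changes was not tested.

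The labels give only a number. Same-numbered IP and input libraries were correlated over all genes, as departures from their groups, and 0 of 12 pairs reached 0.1 at either site. The median correlation was 0.0178 among DVC samples and -0.00532 among MBH samples, and the highest was 0.0574 and 0.091. Between treatments, 14 of 18 same-numbered MBH IP pairs exceeded 0.1 (median 0.16), against 3 of 18 in DVC IP, 3 of 18 in DVC input and 2 of 18 in MBH input. Between sites 6 of 12 IP pairs and 4 of 12 input pairs did, so IP libraries of 1 number deviated together in part. With the replicate block the count over all genes was 1401, against 3776 without it, for IP against input in DVC, 3 against 79 in MBH, 372 against 1015 for the sites in IP and 200 against 852 for the difference between sites, and the 2 DVC members were Clic6 and Enpp2. Counts over all genes ranged from 1401 to 6412 for IP against input in DVC, from 3 to 1846 in MBH (4 to 587 leaving out each sample), from 322 to 3230 for the sites in IP and from 200 to 3270 for the difference between sites; for drugs against saline they went from 0 to at most 1144, with DESeq2. Leaving out samples for the difference between sites was run for 12 of 24. Folr1 and Aqp1 were at 0 in most DVC IP libraries, though these had the highest total counts. RLE size factors moved the median log2 difference of all genes by -0.10 and 0.11 for IP against input in DVC and MBH, by -0.17 for the sites in IP and by -0.35 for the difference between sites, and changed no call of a member.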
